A study of Mus musculus with 11 samples.

Results

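Transcripts of 7 protein kinases of the Raf, MEK, ERK and RSK classes were examined in RPE/choroidal samples of mice treated with a nanosecond laser. They were Braf, Map2k1, Map2k2, Mapk3, Rps6ka1, Rps6ka2 and Rps6ka3, found by gene name among the 14602 genes of the deposited count table. The 7 were listed with their laser against control values in these same libraries known, so those values are given here as a description, without a test. All mice were C57BL/6J and 12 months old at collection. The 5 laser treated samples came from mice that were 9 months old when treated with the 2RT nanosecond laser and were collected 3 months later, and the 6 naïve control samples came from age matched untreated mice. Laser was given to 1 eye as discrete spots that ablate small patches of the RPE, the pigmented monolayer behind the photoreceptors, whereas each sample held RPE and choroid from which the neural retina had been removed. RNA was pre-amplified with a SmartSeq v4 kit and made into NexteraXT libraries. The labels do not state that each library came from a separate mouse, so a p-value measures the spread between these libraries.

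In this cascade a growth factor receptor switches on the small GTPase Ras, which recruits a Raf kinase to the membrane. Raf phosphorylates the MEK kinases, which phosphorylate the ERK kinases, and ERK in turn activates the RSK kinases and transcription factors that drive growth, survival and entry into the cell cycle. Signal runs through this pathway by phosphorylation, which the amount of a transcript does not report. Because the samples were bulk tissue, fewer cells of a type and less RNA per cell cannot be told apart.

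The promoters of 3 of the kinases are shown because the counts of Map2k2 and Rps6ka1, and the assembled last exon of Map2k1, were the values that separated the groups below. Each is the run of 250 bases that ends 1 base before the annotated transcript start, from RefSeq on GRCm38.p6 (the RefSeq start can differ from the GENCODE start used for gene positions), written 5′ to 3′ on the strand of the gene, with the GC box GGGCGG and the letters TGACGT of a cyclic AMP response element in capitals on either strand.
Map2k1, chr9:64253606-64253855, minus strand: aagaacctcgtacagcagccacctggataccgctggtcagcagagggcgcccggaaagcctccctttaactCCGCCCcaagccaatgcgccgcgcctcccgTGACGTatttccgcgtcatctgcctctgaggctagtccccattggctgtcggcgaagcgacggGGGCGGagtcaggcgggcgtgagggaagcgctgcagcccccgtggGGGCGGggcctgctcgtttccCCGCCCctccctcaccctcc
Map2k2, chr10:81105665-81105914, plus strand: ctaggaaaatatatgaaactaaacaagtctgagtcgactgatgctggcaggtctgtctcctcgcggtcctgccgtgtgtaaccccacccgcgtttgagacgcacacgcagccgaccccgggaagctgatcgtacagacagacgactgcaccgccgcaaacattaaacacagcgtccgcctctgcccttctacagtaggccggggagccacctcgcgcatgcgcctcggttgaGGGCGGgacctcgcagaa
Rps6ka1, chr4:133887798-133888047, minus strand: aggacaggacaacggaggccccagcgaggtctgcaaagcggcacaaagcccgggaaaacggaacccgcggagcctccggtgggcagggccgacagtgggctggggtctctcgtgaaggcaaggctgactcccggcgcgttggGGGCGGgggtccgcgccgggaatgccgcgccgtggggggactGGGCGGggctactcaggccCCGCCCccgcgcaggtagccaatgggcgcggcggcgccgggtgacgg
The Map2k1 window held 4 GC boxes and 1 TGACGT, the Map2k2 window 1 GC box and the Rps6ka1 window 3 GC boxes. RefSeq gives Rps6ka1 starts for another 2 windows (chr4:133874732-133874981 and chr4:133873036-133873285), which held 0 GC boxes. The window printed is the one at the start of the whole gene. The ETS core CCGGAAG, also searched on both strands, was in none of these 3 windows. Of 32851 RefSeq promoter windows of this length, 32.7% held a GC box, 6.47% TGACGT and 6.91% the ETS core. The Mapk3 and Rps6ka3 promoters were not printed here.

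Total counts ranged from 25700881 to 38755994 per library. No gene passed an adjusted p of 0.05 in the laser against control comparison with edgeR, whereas 2325 genes had an unadjusted p under 0.05, and DESeq2 called 502 genes after adjustment. Log2 fold changes were higher with higher GC content of the transcript across all genes, from a median of -0.36 below 42% GC to 0.30 above 58%. Segment names in the transcript files carried the label R1 in 3 control and 2 laser treated libraries and R2 in the others, and its meaning is not given. At least 1000 counts of the Y-linked Ddx3y were found in 2 control and 3 laser treated libraries. Laser treated replicate 2 held both 1624 counts of Xist and 201 of Ddx3y. The part of these features in the results below was not tested beyond the values given beside them.

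Of the 7 kinases, Rps6ka1, an RSK gene, had the largest described difference, a log2 fold change of 1.15 in laser treated against control samples. This was in CPM, read counts scaled to library size after TMM normalization. The other RSK genes, Rps6ka2 and Rps6ka3, had 0.08 and -0.80 (standard errors 0.29 and 1.01). Of the kinases above RSK in the cascade, Map2k2 and Mapk3 were higher and Map2k1 and Braf were lower on average. The plot of CPM by library shows each gene on its own axis.

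**Figure D1:**
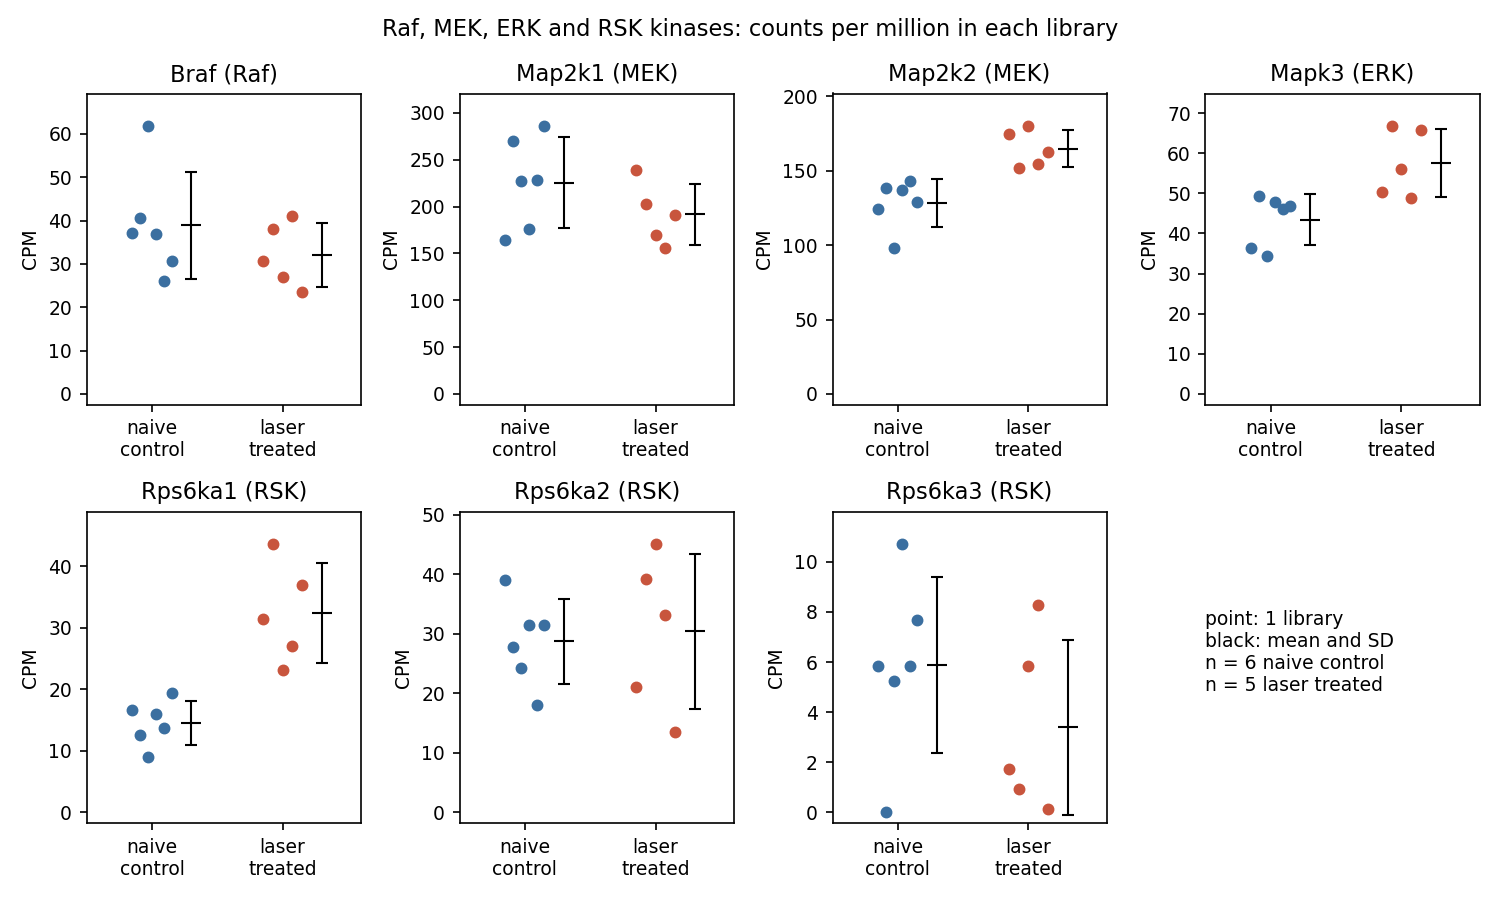
CPM (y axis) of each of the 7 kinases in the naïve control libraries (blue, n = 6) and the laser treated libraries (red, n = 5), with the mean and SD in black. Map2k2 and Rps6ka1 did not overlap between the groups, with Rps6ka1 at 9.04 to 19.4 CPM in controls and 23.1 to 43.5 CPM after laser.

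Braf, a Raf kinase that phosphorylates MEK, lies on chromosome 6 (chr6:39603237-39725463, minus strand, GRCm38). It ranged from 26.1 to 61.9 CPM in naïve control samples, with a median of 37.0 CPM. The laser treated samples had 30.7, 38.1, 26.9, 41.1 and 23.4 CPM. The groups overlapped, and control replicate 3 at 61.9 CPM was above all other libraries. The mean was 38.9 ± 12.4 CPM (SD, n = 6) in controls and 32.0 ± 7.43 CPM (SD, n = 5) after laser. On the log2 scale the fitted difference was -0.28 with a standard error of 0.23. Once the GC trend was removed this became 0.06, and genes within 2 percentage points of the GC content of Braf, 42.6%, had a median log2 fold change of -0.29. Exons of Braf overlap those of Ndufb2, so reads there may be shared.

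Map2k1 and Map2k2 encode the MEK kinases MEK1 and MEK2. Mean CPM after laser was lower for Map2k1, with overlap between the groups, and higher for Map2k2. Both differences depended on the setting. That of Map2k1 changed sign within label R1, and that of Map2k2 was 0.13 (log2, standard error 0.14) with the GC trend removed. Map2k1 (chr9:64185770-64253631, minus strand) ranged from 164 to 286 CPM in controls with a median of 228 CPM. Laser treated samples had 239, 202, 170, 156 and 191 CPM, so the groups overlapped and 1 of the 5 lay below every control. Controls averaged 226 ± 48.9 CPM (SD, n = 6), whereas laser treated samples averaged 192 ± 32.1 CPM (SD, n = 5). The fitted log2 difference was -0.24 with a standard error of 0.16. This was -0.28 with the GC trend removed, -0.40 within label R2 and 0.02 within label R1, where it changed sign.

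Map2k2 (chr10:81105915-81133975, plus strand) ranged from 98.3 to 143 CPM in controls with a median of 133 CPM. It had 174, 152, 180, 155 and 163 CPM in the laser treated samples. All 5 laser treated samples were above all 6 controls. Across all genes, 2.26% did not overlap between the groups, 1.4% with the laser group higher, beside 2 of the 7 kinases that were chosen on this comparison. The control mean of 128 ± 16.3 CPM (SD, n = 6) stood against a laser mean of 165 ± 12.3 CPM (SD, n = 5). This gave a log2 difference of 0.36 with a standard error of 0.11. Within label R1 it was 0.46 and within label R2 0.30. The GC content of Map2k2 was 60.4%, genes within 2 points of it had a median log2 fold change of 0.32, and with the GC trend removed Map2k2 stood at 0.13 (standard error 0.14).

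Mapk3, which encodes the kinase ERK1, was the only ERK gene among the 7 (chr7:126759601-126765819, plus strand). Control samples ranged from 34.3 to 49.2 CPM with a median of 46.4 CPM. Laser treated samples had 50.3, 66.9, 56.0, 48.9 and 65.7 CPM, and 4 of the 5 were above every control. The groups overlapped through control replicate 2 and laser treated replicate 4. Controls averaged 43.4 ± 6.41 CPM (SD, n = 6), whereas after laser the mean was 57.6 ± 8.42 CPM (SD, n = 5). The log2 difference was 0.41 with a standard error of 0.15. It was 0.57 within R1, 0.30 within R2 and 0.18 with the GC trend removed, where genes of like GC content had a median of 0.29 before removal.

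The RSK genes encode the kinases that ERK activates. Rps6ka1, which encodes RSK1 (chr4:133847290-133887797, minus strand), ranged from 9.04 to 19.4 CPM in controls with a median of 14.8 CPM. The laser treated samples had 31.4, 43.5, 23.1, 27.1 and 36.8 CPM, all above all controls. Mean Rps6ka1 was 14.5 ± 3.60 CPM in controls (SD, n = 6), whereas laser treated samples had a mean of 32.4 ± 8.06 CPM (SD, n = 5). Its fitted log2 difference was 1.15 with a standard error of 0.22. It was 1.58 within R1, 0.85 within R2 and 0.96 with the GC trend removed, beside a median of 0.28 for genes of like GC content. Without each library in turn it lay between 1.02 and 1.25, and with high Ddx3y as a covariate, an alternative chosen after seeing the data, it was 1.16.

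The assembled segments gave a second view of Rps6ka1 from the same libraries. TPM summed over its segments, a scale per length, ranged from 3.70 to 10.0 in controls and from 11.3 to 17.9 after laser. Its last exon of 885 bases took 3.92 to 7.15 ppm of all assembled read coverage in controls and 8.24 to 15.5 after laser. Neither range overlapped between the groups. The share of all genes without overlap on these measures was not computed. Both come from the libraries whose values were known when Rps6ka1 was listed, so they are a description. Exons of Rps6ka1 overlap those of the annotated gene Gm12977, so its reads may be shared, and Gm12977 was not analysed here.

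Rps6ka2, which encodes RSK3 (chr17:7170115-7303315, plus strand), ranged from 18.1 to 39.1 CPM in controls with a median of 29.6 CPM. After laser it had 20.98, 39.2, 45.0, 33.2 and 13.5 CPM, which reached above and below the whole control range. The log2 fold change was 0.08 (standard error 0.29) and -0.07 with the GC trend removed.

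Rps6ka3, which encodes RSK2, is X-linked (chrX:159210307-159368244, plus strand) and was the least counted of the 7. Control samples ranged from 0 to 10.7 CPM with a median of 5.86 CPM. Laser treated samples had 1.72, 0.951, 5.85, 8.28 and 0.1503 CPM. The groups overlapped, and the log2 fold change of -0.80 had a standard error of 1.01.

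The deposited counts of Rps6ka3 departed from the read coverage in the transcript files. Control replicate 2 had 0 counts, but segments assembled in Rps6ka3 exons of that library held 65120 read bases. Laser treated replicate 5 had 5 counts and 19256 read bases. Per deposited count, the exon segments held a median of 201 read bases for Rps6ka3, with a range from 89.3 to 3851 over the 10 libraries with counts. For the other 6 kinases the same ratio lay between 22.5 and 134 in every library. The last exon of Rps6ka3 is 4882 bases long, and it was covered over 3301 to 4603 bases in controls and 2255 to 3896 bases after laser, with overlap. A count of 0 for Rps6ka3 is therefore not a library without reads on the annotated gene, and which part of the gene was counted is not given in the sources used here.

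**Figure D2:**
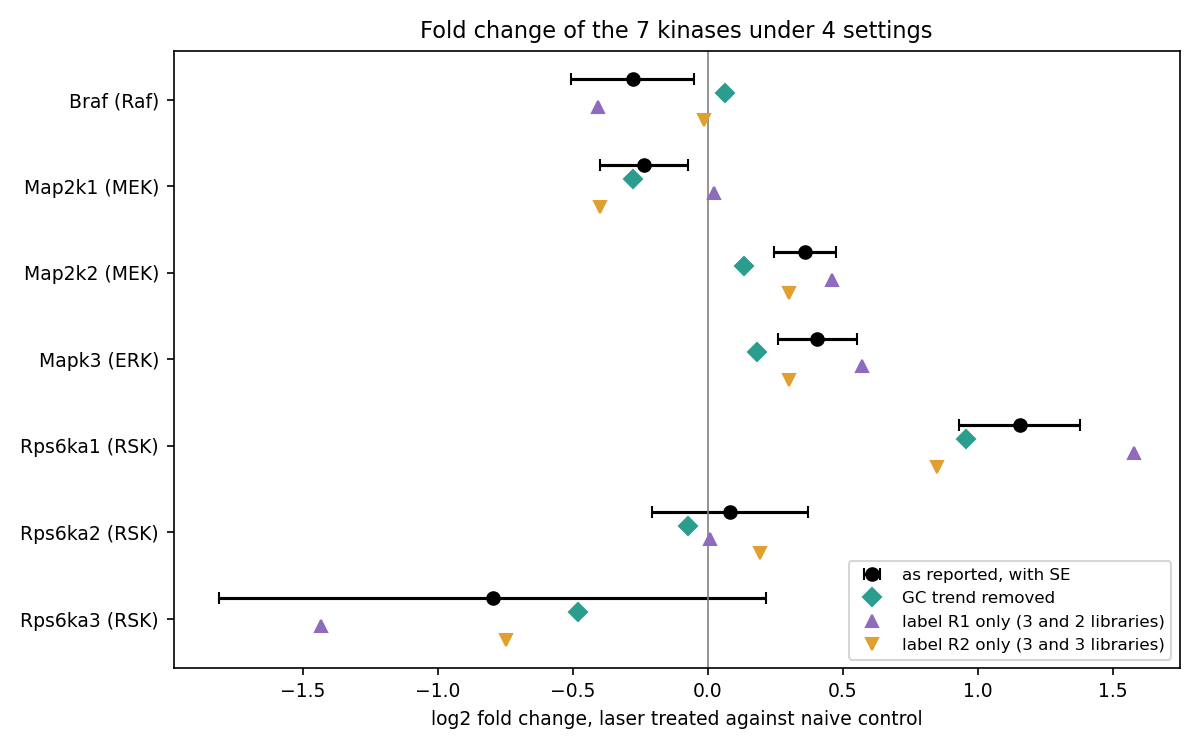
Log2 fold change after laser relative to naïve controls (x axis) for each kinase from all 11 libraries with its standard error (black), with the GC trend removed (green) and within the libraries labelled R1 (purple) or R2 (orange). Rps6ka1 stayed between 0.85 and 1.58, whereas Braf, Map2k1 and Rps6ka2 had values on either side of 0.

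The assembled length of the last exon of Map2k1 did not overlap between the groups, whereas its counts did. The transcript files carry no gene names, so segments were placed on genes by position. The last exon of Map2k1 (exon 11, chr9:64185770-64186798, minus strand, 1029 bases) holds 111 coding bases and a 3′ UTR of 918 bases. In all 6 controls a single segment covered only the distal end of the UTR. These segments were 229, 264, 243, 234, 233 and 229 bases long and ended 272 to 280 bases from the 3′ end of the exon. In all 5 laser treated libraries a single segment began 18 to 53 bases from the 3′ end and reached the start of the exon, with lengths of 993, 977, 986, 1008 and 1012 bases.

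The mean coverage of those segments was 2006 to 3029 reads per base in controls and 521 to 787 reads per base after laser. Spread over the full exon, coverage was 446 to 681 reads per base in controls and 510 to 758 reads per base after laser, so it overlapped. The files give 1 mean per segment and no profile within it. Segment TPM of Map2k1, which is scaled by segment length, was 460 to 802 in controls and 225 to 282 after laser, without overlap. How many of all genes had no overlap in segment TPM was not computed. On that scale its log2 fold change was -1.40, in contrast to -0.24 from counts.

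**Figure D3:**
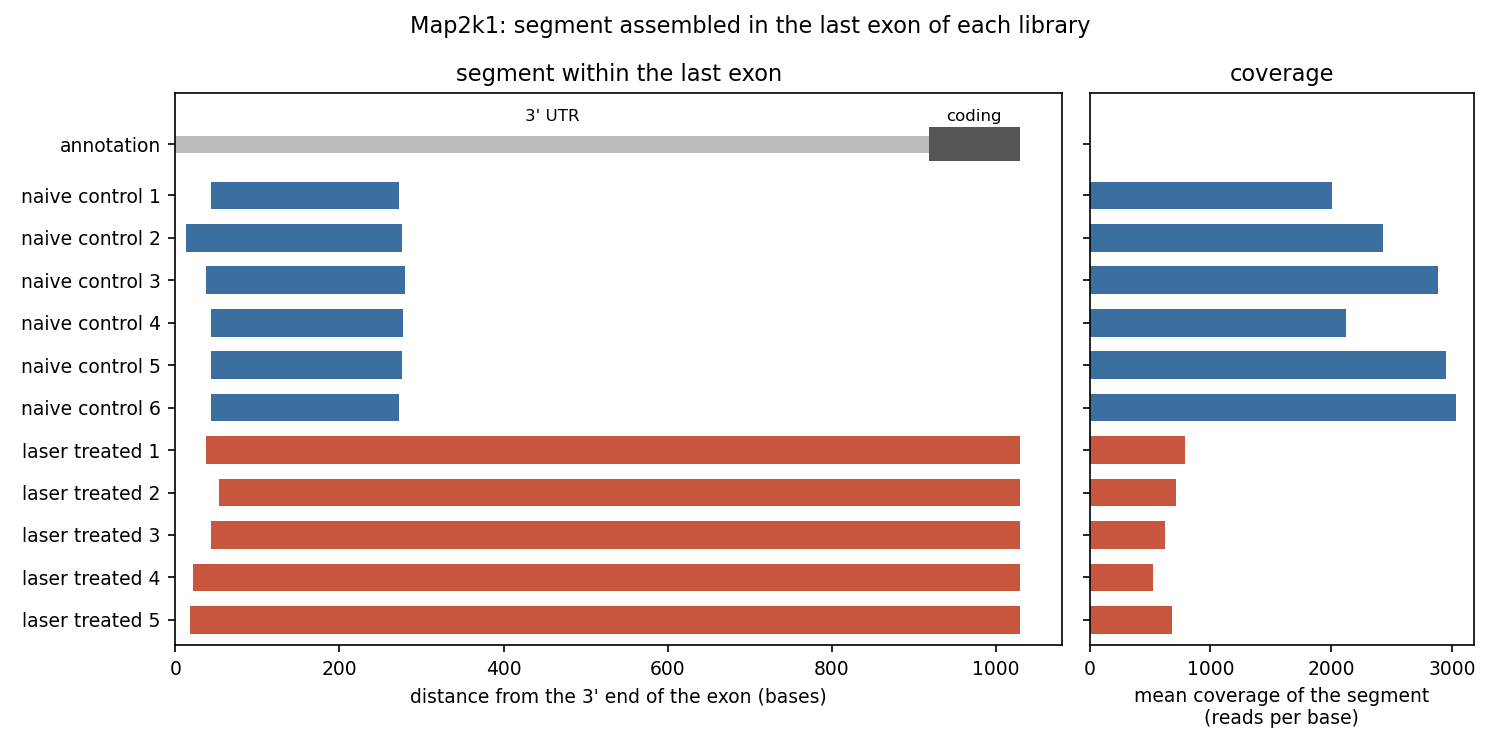
Left, the segment assembled in the last exon of Map2k1 in each library, drawn by its distance in bases from the 3′ end of the exon, below the annotated 3′ UTR (light grey) and coding part (dark grey). Right, mean coverage of that segment in reads per base. Control segments stop by 280 bases and have 2006 to 3029 reads per base, whereas laser treated segments reach the start of the exon with 521 to 787.

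The difference in length was present within both labels. Within R1 the covered length was 229 to 264 bases in 3 controls and 976 to 992 bases in 2 laser treated libraries, and within R2 it was 229 to 234 and 985 to 1011 bases in 3 libraries each. Among libraries with at least 1000 counts of Ddx3y it was 233 to 234 bases in 2 controls and 992 to 1011 bases in 3 laser treated libraries. Last exons of at least 500 bases that were covered in every library numbered 7862 over all genes. Of these, 0.254% were covered over more bases in every laser treated library than in any control, and 0.089% over fewer.

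The ratio of the median covered length after laser to that in controls was 4.25 for Map2k1, and 44 of the 7862 exons, Map2k1 among them, had a ratio at least as high. It was above 2 in 202 exons and under 0.5 in 122, with a median of 1 over all 7862. Only the Map2k1 exon was more than 2 times longer in every laser treated library than in any control, a limit set after its values were seen, and 0.0127% of the exons compared passed it. How the ends of segments depend on coverage and on the assembler was not tested.

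Upstream of the last exon the assembled segments of Map2k1 held little coverage. Each segment has 1 exon, and several short exons had none. Exon 10 was covered in 0 libraries, and exons 3, 4, 6 and 9 in at most 1 library of each group. How far such segments miss reads on short exons was not tested. The last exon held 86.4% to 94.8% of Map2k1 exon coverage in these segments in controls and 84.8% to 89.9% after laser. Exon 7 had 72.6 to 197 reads per base in controls and 130 to 211 after laser. Exon 1, which holds the 5′ end, had 33.7 to 98.2 and 65.4 to 103 reads per base. The last exon had 5.14 to 14.9 times the mean coverage of exons 1, 2 and 7 in controls and 4.51 to 7.32 times after laser.

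Map2k2 showed a related but overlapping pattern. Its last exon of 1078 bases was covered over 258 bases in control replicate 1 and 262 bases in control replicate 4, against more than 1000 bases in the other controls and 1070 to 1078 bases in the laser treated libraries. The last exon of Mapk3 was covered over 575 to 580 of its 580 bases in every library, and that of Rps6ka1 over 868 to 885 of its 885 bases.

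Levels within the MEK and RSK classes were compared as shares of CPM per kilobase of exon length. Map2k2 made up 25.9% ± 4.91 of the MEK sum in controls (SD, n = 6) and 34.3% ± 3.73 after laser (SD, n = 5). Per kilobase of longest transcript, that share averaged 37.0% in controls and 46.8% after laser. Rps6ka1 was 48.8% ± 5.60 of the sum of the 3 RSK genes in controls and 68.9% ± 13.9 after laser. Rps6ka3 was 9.84% ± 5.40 of that sum in controls and 3.81% ± 3.97 after laser. These RSK shares use the deposited counts, which for Rps6ka3 departed from the read coverage. By segment TPM, Rps6ka3 averaged 10.9 beside 6.03 for Rps6ka1 in controls, and 6.37 beside 13.8 after laser. Rps6ka6, a further gene of the family, was not in the sum. The ranges overlapped between groups for each of these shares.

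**Figure D4:**
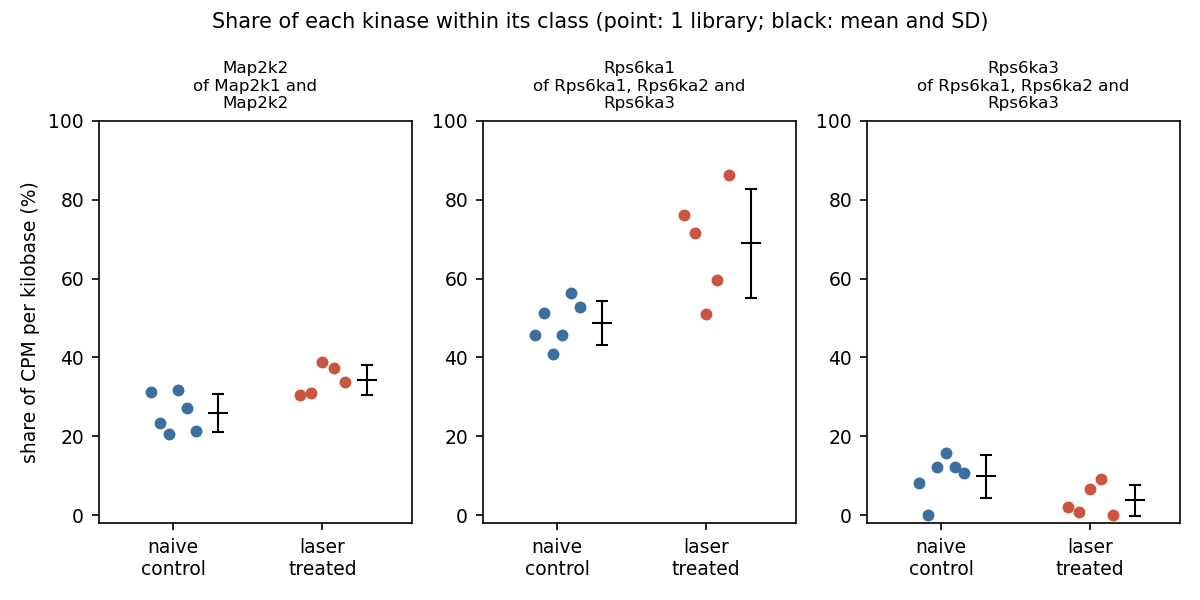
Share of a kinase in the summed CPM per kilobase of its class (y axis, %) in each control library (blue, n = 6) and laser treated library (red, n = 5), with mean and SD in black. The RSK sum holds Rps6ka1, Rps6ka2 and Rps6ka3, from the deposited counts. Rps6ka1 lies between 41.0% and 56.2% in controls and between 51.0% and 86.3% after laser, and all panels overlap.

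Across all 11 libraries Map2k1 had the highest mean level per length, 62.0 ± 12.9 CPM per kilobase of exon (SD, n = 11). It was 1.26 ± 0.43 above Map2k2 on the log2 scale (exact two-sided sign-flip permutation test, adjusted p = 0.00195 over 6 neighbours, higher in 11 of 11 libraries). This rests on the length of all annotated exons together. Per kilobase of the longest transcript, Map2k2 was above Map2k1 in laser treated replicates 3 (75.0 against 69.7) and 4 (64.3 against 64.1). By segment TPM it was above in laser treated replicates 3, 4 and 5. On the scale of all annotated exons, Map2k2 followed with 25.6 ± 4.15 and Mapk3 with 22.1 ± 4.50 CPM per kilobase. These 2 differed by 0.22 ± 0.19 on the log2 scale (exact permutation test, adjusted p = 0.00703), with Map2k2 higher in 6 of 6 controls and 3 of 5 laser treated libraries. Rps6ka1 had 5.32 ± 2.57 CPM per kilobase, below Mapk3 in every library. The log2 gap between these genes was 2.48 ± 0.33 in controls (SD, n = 6) and 1.75 ± 0.25 after laser (SD, n = 5). Rps6ka2 followed at 2.95 ± 0.971 CPM per kilobase, and its place below Rps6ka1 rested on the laser treated libraries. In controls Rps6ka1 was above Rps6ka2 in 4 of 6 libraries, by 0.24 ± 0.36 on the log2 scale (SD, n = 6), and after laser in 5 of 5, by 1.38 ± 0.88 (SD, n = 5). Because Rps6ka1 was chosen on the laser values, no test is given for this pair or for Mapk3 with Rps6ka1. The neighbours were ordered by the means of these same libraries, with the laser values of all 7 kinases known. The p-values therefore describe the gaps and are no separate support for the order.

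Rps6ka2 and Braf, at 2.58 ± 0.762 CPM per kilobase, did not differ beyond their spread, since their log2 difference was 0.16 ± 0.53 (adjusted p = 0.345, exact permutation test). Rps6ka3 was lowest at 0.571 ± 0.429 CPM per kilobase, by 2.38 ± 1.33 on the log2 scale with a pseudocount of 0.1 (adjusted p = 0.00195, exact permutation test). The smallest adjusted p here rests on 0.000977, the smallest these sign flips can give. By segment TPM, Rps6ka2 came before Rps6ka1 and Rps6ka3 before Braf, so the order of the low genes depended on the scale. The gaps between the high genes depended on it too. Map2k2 and Mapk3 averaged 60.3 and 27.7 CPM per kilobase of longest transcript, and 211 and 50.9 by segment TPM. The permutation tests used the length of all annotated exons.

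Whether the kinases varied together among libraries of the same group was examined by Pearson's r of log2 CPM after the group means were subtracted. None of the 21 pairs passed an adjusted p of 0.05 by the within-group permutation test. The strongest before removal of the GC trend was Map2k2 with Braf, r = -0.78 and Spearman's rho = -0.68 over 11 libraries (permutation p = 0.0159, adjusted p = 0.334, and p = 0.0317, adjusted p = 0.666, for rho). Without control replicate 3 r was -0.51, without the 2 libraries farthest from the median of Map2k2 it was -0.41, and with the GC trend removed it was -0.23. Mapk3 with Rps6ka1 had r = 0.56 and rho = 0.54 (permutation p = 0.0912 and 0.109, adjusted p = 0.581 and 0.808). It was 0.56 without the 2 farthest libraries and 0.34 without control replicate 3. Removing the GC trend raised r for other pairs. It went from 0.09 to 0.62 for Map2k1 with Map2k2, from 0.31 to 0.67 for Map2k1 with Mapk3, and from 0.50 to 0.67 for Map2k2 with Mapk3. The r with the GC trend removed were not tested.

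Among 8853 genes with a mean of at least 10 CPM, those most like each kinase over the 11 libraries by the same measure are listed as a description. For Braf they were Elp2, Zcchc17 and Ddx1 (r = 0.92, 0.89 and 0.86). For Map2k1 they were Phyhd1, Fbxl20 and Mtmr10 (r = 0.90 each). Map2k2 was followed most closely by Spsb3, Gprc5c and Ap3b1 (r = 0.92, 0.89 and 0.88, and 0.94, 0.52 and 0.61 with the GC trend removed). Mapk3 had Uap1l1, Tmppe and Zfp598 (r = 0.91, 0.90 and 0.89). Rps6ka1 had Mvk, Shc1 and Gusb (r = 0.94, 0.94 and 0.93), of which Shc1 encodes an adaptor that links receptors to Ras. The nearest to Rps6ka2 were Prkcsh, Zfp740 and Rab40c (r = 0.88, 0.87 and 0.87), and to Rps6ka3 Csnk1g3, Spg7 and Zfp623 (r = 0.92, 0.91 and 0.91). Those of Rps6ka3 were 0.92, 0.76 and 0.90 with the GC trend removed. They rest on its deposited counts, which departed from the read coverage.

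The summed CPM of marker genes was set beside these patterns. The 12 RPE markers summed to 95368 to 132923 CPM in controls and 78425 to 129591 CPM after laser, with 5 higher and 7 lower on average, 2 of them higher at an unadjusted p under 0.05 beside 8.24% of all genes. The deviations of Map2k1 from its group means followed them with r = 0.78. The 19 neural retina markers summed to 14269 to 35283 CPM in controls and 11556 to 28010 CPM after laser, with 15 of 19 lower and 2 at an unadjusted p under 0.05, and deviations of Mapk3 and Rps6ka1 ran against them with r = -0.74 and -0.68. Schwann cell markers, 7 of 8 in the table, summed to 425 to 732 and 644 to 1400 CPM, with 5 higher and 2 lower on average and 4 higher at an unadjusted p under 0.05. Blood markers, 5 of 8 in the table, were all lower, with sums of 52.1 to 326 CPM and 40.6 to 160 CPM. The smooth muscle and pericyte markers (7 of 8 higher on average) summed to 182.6 to 290 and 223 to 339 CPM, and 8 macrophage markers (4 higher and 4 lower) to 209 to 390 CPM in controls and at least 290.6 CPM after laser. Apart from neural retina, the deviations of Rps6ka1 had a positive r with all 8 other lists, from 0.33 for Schwann cells to 0.76 for macrophages and 0.80 for smooth muscle and pericytes. Those of Mapk3 did as well, from 0.14 for Schwann cells to 0.71 for endothelium. These r are descriptions over 11 libraries that share library depth and base composition, and the part of tissue content in the kinase values was not tested. Endothelial markers (9 of 10 higher on average) summed to 120.4 to 358 and 209 to 587 CPM, fibroblast markers (6 of 8 higher) to 94.6 to 535 and 132 to 466 CPM, and melanocyte markers (7 of 8 higher) to 524 to 1165 and 620.5 to 1333 CPM. In at least 1 library, 1 marker each of RPE, melanocytes and Schwann cells and 2 each of macrophages and smooth muscle or pericytes were at 0 counts. The lists were not fully separate. Rlbp1 was in both the RPE and neural retina lists, and Sox10 in both the melanocyte and Schwann cell lists. The melanocyte list also held pigment genes such as Pmel and Tyrp1, and the RPE is pigmented, so its sum is not particular to melanocytes.

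The other genes of the pathway were tested with edgeR across all genes. Of 156 genes in 9 lists, none passed an adjusted p of 0.05, and 31 (19.9%) had an unadjusted p under 0.05, 15 higher and 16 lower, beside 15.9% of all genes tested (8.24% higher and 7.68% lower). DESeq2 called 3 of the 156 after adjustment, namely Rras2, Spry2 and Map2k3, beside 502 of all 14602 genes. Removing the GC trend left 16 of the 156 at an unadjusted p under 0.05, beside 1072 of all 14602 genes. The median log2 fold change of the 156 was 0.09, against -0.02 for all genes and 0.08 for the 7 kinases. Of the 7, 4 had a log2 fold change above 0, as did 48.5% of all genes.

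In the remaining Raf, MEK, ERK and RSK family, 1 of 8 genes (12.5%) had an unadjusted p under 0.05, beside 15.9% of all genes. Rps6ka4, which encodes the related kinase MSK2, had a log2 fold change of 0.63 (adjusted p = 0.308, edgeR) next to 1.15 for Rps6ka1. Araf, another Raf gene, had 0.17 (adjusted p = 0.567, edgeR) beside -0.28 for Braf. The scaffold gene Ksr1 was at 1.94 to 3.61 CPM after laser and 0.481 to 1.74 CPM in controls, a log2 fold change of 1.26 (adjusted p = 0.333, edgeR). Ksr2, Rps6ka5 and Rps6ka6 averaged under 3 CPM in both groups, with log2 fold changes of 2.15, -0.24 and -1.20 and standard errors of 1.35, 1.01 and 1.47.

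**Figure D5:**
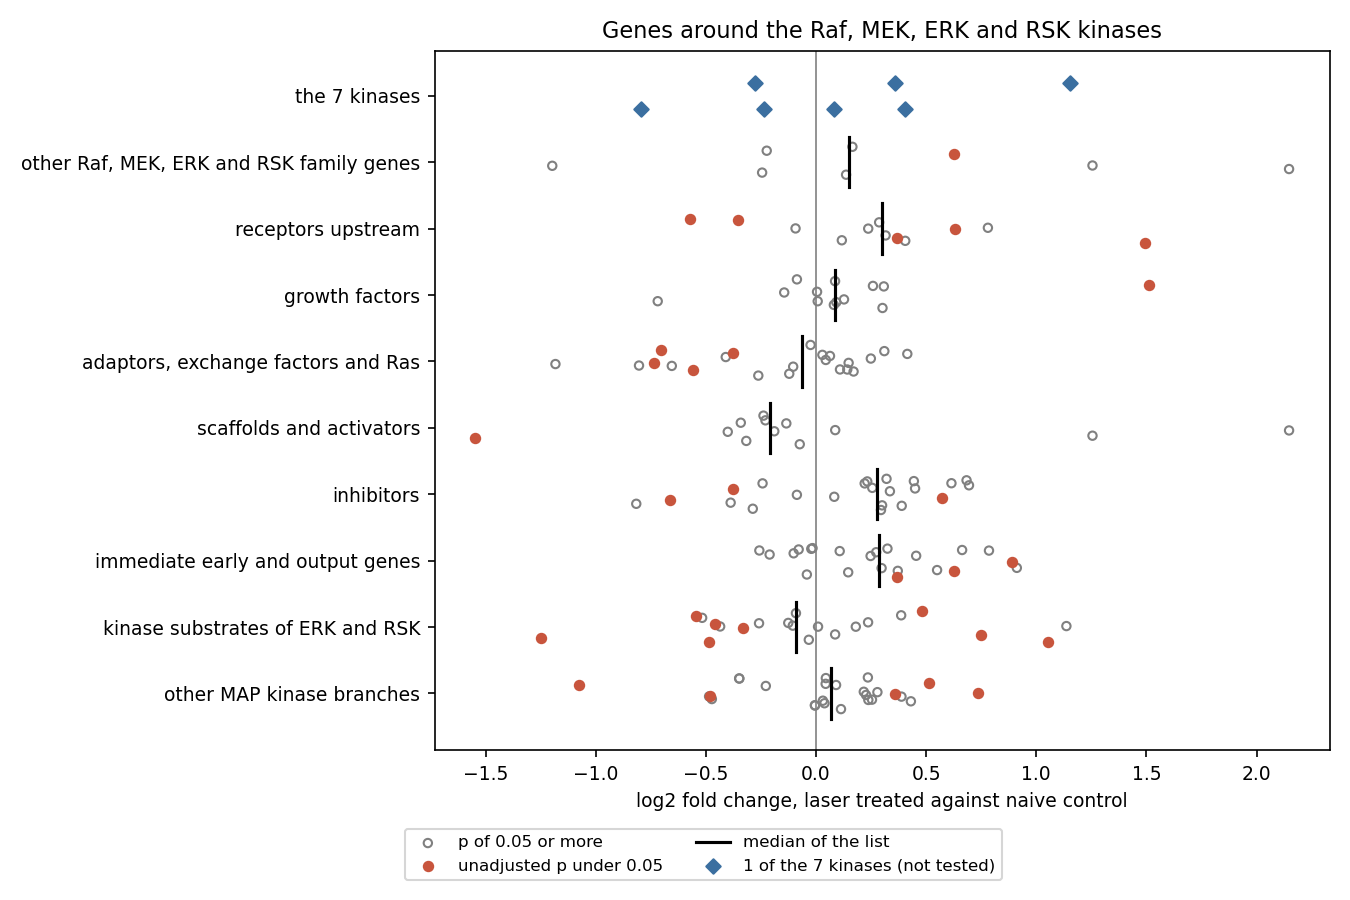
Log2 fold change (x axis) of the genes of 9 pathway lists, with genes at an unadjusted p under 0.05 in red, other genes as open circles and list medians as black bars, below the 7 kinases (blue diamonds). No gene passed an adjusted p of 0.05, and the 31 red points fall on either side of 0, 15 higher and 16 lower.

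Upstream of Braf, 4 of 22 adaptor, exchange factor and Ras genes (18.2%) had an unadjusted p under 0.05, beside 15.9% of all genes. All 4 were lower, as were 7.68% of all genes. Among them were Rras2, Sos2 and Rap1a with log2 fold changes of -0.70, -0.74 and -0.38. With the GC trend removed, that of Rap1a was -0.03. Among 12 receptors, 3 were higher and 2 lower at that threshold (41.7%), and the smallest p belonged to Erbb2, Fgfr1, Met and Fgfr2 (1.49, 0.63, -0.35 and 0.37). Of 13 growth factors only Pdgfb passed it (1.51), which was 7.69% of the list, and Pdgfa, Fgf9 and Pdgfc followed (0.26, -0.72 and 0.31). Among 12 scaffolds and activators Cnksr1 was lower (-1.55), which was 8.33% of the list, with Shoc2 at -0.24 beside Ksr1 and Ksr2 above.

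Of 22 inhibitors, which restrain Ras, Raf or ERK, 1 was higher and 2 lower at that threshold (13.6%, beside 15.9% of all genes). They were Spry1 (0.57), Spry2 (-0.66) and Rasa1 (-0.38), and Dusp4 was next at 0.44. Downstream, 3 of 22 immediate early and output genes were higher and none lower, namely Jun, Etv5 and Jund (0.89, 0.63 and 0.37), with Etv4 at 0.79. That was 13.6% of the list, beside 15.9% of all genes in either direction and 8.24% higher. Among 21 substrates of ERK and RSK, 3 were higher and 5 lower (38.1%), led by Ets2, Bcl2l11, Rps6 and Mitf (1.05, -1.25, -0.46 and -0.49). In the other MAP kinase branches 3 of 26 genes were higher and 2 lower (19.2%), led by Map2k3, Mapk8, Map3k11 and Map3k1 (0.74, -1.08, 0.51 and -0.48). The adjusted p of every gene named in these lists was at least 0.174 with edgeR.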

How the data were processed

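RNA sequencing of 11 RPE/choroidal libraries was analysed. The authors deposited raw read counts per gene, without normalization or pooling, beside a log2 fold change, abundance, F statistic, p-value and FDR from their own comparison, which were not used. They also deposited segments assembled per library, each with 1 exon, a coverage and a TPM. The submitters' processing notes name bcl2fastq 2.18.0.12, Trim Galore, STAR 2.5.3a, featureCounts 1.5.3, StringTie 1.3.3 and edgeR 3.22.3, with mm10 and GRCm38. The counting annotation and strand setting are not given in the sources used here.

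Counts were fitted with edgeR 4.0.16 in R 4.3.3 (TMM, filterByExpr, which removed 0 genes, robust quasi-likelihood test, Benjamini-Hochberg adjustment over 14602 genes). The common biological coefficient of variation was 0.58. Depth was 25700881 to 38755994 counts per library, and standard errors give the precision at that depth. GENCODE M21 gave positions on GRCm38 for 13045 genes through the Ensembl identifier, for 1198 through a former symbol and for 10 through the current symbol, while 349 stayed unmatched. Segment TPM was summed per gene where at least 50% of a segment lay in its exons on its strand or without strand. The last exon is that of the longest principal coding transcript. Alternatives were DESeq2 1.42.0, limma 3.58.1 voom with quality weights, upper quartile scaling, other count filters, a replicate block, a loess GC trend (span 0.3), the labels R1 and R2, segment TPM with a pseudocount of 1 or 0.1, and each library left out. A covariate for at least 1000 counts of Ddx3y was added after seeing the data. Correlations used log2 CPM with a prior count of 2 and 100000 permutations within groups. Permutation tests were run with scipy 1.17.1, and tables were handled with numpy 2.4.6 and pandas 2.3.3 under Python 3.11.15.

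The 7 kinases, the pathway and marker lists and the tests were chosen with earlier results of these data known. Genes named beyond the 7 are their family, the 4 with the smallest p in each pathway list, and the 3 most correlated with each kinase, some of which are not reported here. Ddx3y, Xist and genes that overlap a kinase were named after their values were seen. The scripts were tested on simulated data. Fellow eyes, quantitative PCR and histology were not analysed here.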

Additional observations from a re-analysis of the deposited data

Results flagged for a closer look

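The CPM and the covered length of the last exon of each of the 7 kinases in each group gave 28 groups of values. Of these, 3 held a library flagged by its gap to the nearest other library, relative to the range of the group. This ratio can be large where lengths differ by only a few bases. The share of about 5% of groups flagged by chance is a setting. It was not derived for covered lengths, which are whole numbers limited by the exon. The covered length of the last exon of Mapk3 was 575 bases in laser treated replicate 2 and 577 bases in each of the other 4 laser treated libraries. That of Braf was 3618 bases in control replicate 2 against 6428 to 7165 bases in the other controls. That of Rps6ka2 was 3100 bases in laser treated replicate 1 against 3086 to 3090 bases in the others. The flags of Mapk3 and Rps6ka2 thus rest on a few bases, and these libraries were not far from the others. The controls of Map2k2 were not flagged, although replicates 1 and 4 had 258 and 262 bases and the others at least 1039. The CPM of the 7 kinases held no flagged library in either group. The cause was not tested.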

How the results depend on the processing

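With edgeR no gene passed an adjusted p of 0.05. DESeq2 called 502, a minimum of 10 counts in every library 2, limma voom with quality weights 1, and leaving out each library 0 to 4, with 4 reached without laser treated replicate 2. The count at an unadjusted p under 0.05, 2325, became 1072 with the GC trend removed, 903 within R2, 1474 with the replicate block and the GC trend removed, and 1685 to 2771 without each library. For the pathway lists, 31 became 16 with the GC trend removed, 8 within R2 and 17 to 33 without each library, 17 without laser treated replicate 2. Samples with the same replicate number did not deviate together in every pair (r from -0.01 to 0.28, 2 of 5 laser treated libraries correlating best with their own number), so the numbers were not taken as pairs. With the replicate block alone there were 0, 2542 and 36 calls, and the log2 fold change of Rps6ka1 was 1.25. The log2 fold change of Map2k1 became 0.0214 within R1, and that of Braf 0.0625 with the GC trend removed and 0.0421 with the replicate block and the GC trend removed. The covariate for Ddx3y, chosen after seeing the data, gave 0, 2217 and 26 calls. Rps6ka1 was higher after laser under every alternative run. Each alternative used all or part of the libraries whose values were known when it was listed, so this is a description. The cause of these changes was not tested, and the spread between libraries limits the low counts of Rps6ka3 most.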
